A study of Homo sapiens with 6 samples.

Results

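The interleukin-1 (IL-1) family cytokines and receptor genes described here were the ligands IL1A, IL1B, IL18 and IL33, the receptor chains IL1R1, IL1RAP and IL1RL1, and the receptor-associated kinases IRAK1, IRAK2 and IRAK4. These 10 genes were chosen by name and function, with earlier results of these data known, and all 10 were among the 24526 genes of the count table. Transcripts were measured by poly(A) RNA-seq in WM266.4 cells, an established human melanoma line, 48 h after transfection. The neg.si group (3 libraries) received a non-targeting negative control siRNA, and the RIPK4.si group (3 libraries) received siRNA of a single design against RIPK4, a receptor-interacting serine/threonine kinase studied in melanoma as an upstream regulator of NF-kB signalling. All cultures belonged to the same line, all were transfected, and no cytokine was added in the sequenced samples as labelled. The comparison therefore asks how resting levels of this family differed after transfection with the RIPK4 siRNA. With a single siRNA design, effects of lower RIPK4 and other effects of that siRNA cannot be told apart. The methods describe the replicates of a condition as biological, and p-values measure the spread between these cultures only.

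IL-1 family cytokines act through paired receptor chains. IL-1α and IL-1β bind IL1R1 and IL-33 binds IL1RL1 (also called ST2), and both complexes need the accessory chain encoded by IL1RAP, whereas IL-18 uses receptors of its own. The assembled receptors recruit MYD88, the kinases IRAK4, IRAK1 and IRAK2, and then TRAF6, which leads to NF-kB and MAP kinase activation and to transcription of chemokines, PTGS2 and other inflammatory genes. IL-1β and IL-18 are made as precursors that caspase-1 cleaves, while IL-1α and IL-33 are active without it and are known as alarmins released from damaged cells.

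The transcripts of IRAK1 and IL1B carry sequence elements in their 3′ UTRs that are textbook examples of control after transcription, and these are shown because they help to place genes that represent the kinases and the ligands. The microRNA miR-146a-5p is known to target IRAK1; its mature sequence (RefSeq, GRCh38.p14, chr5:160485372-160485393, plus strand) is printed with the seed, bases 2 to 8, in capitals. In the target stretches the capitals mark the 7 bases complementary to that seed (AGTTCTC), and in the IL1B stretch they mark an AU-rich element (TTATTTATT). The stretches were read on the transcript strand of GRCh38 in the longest 3′ UTR annotated in GENCODE 44.
hsa-miR-146a-5p: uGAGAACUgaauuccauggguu
IRAK1, chrX:154011801-154011830, minus strand: ccggaagtcaaAGTTCTCatggtcagaagt
IRAK4, chr12:43789251-43789280, plus strand: ggtgatgagtgAGTTCTCactcagttcgtg
IL1B, chr2:112829994-112830023, minus strand: gcttccctatTTATTTATTtatttgtttgt

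IRAK1 held 2 matches to the miR-146a-5p seed in its 3′ UTR, IRAK4 held 1, and the other 8 genes held 0. The same 7 bases, searched on the transcript strand, were found in the longest 3′ UTR of 14.98% of 15247 genes. IL1B held 2 overlapping copies of TTATTTATT and the other members held 0, against 9.54% of all 3′ UTRs with at least 1. The shorter AU-rich core ATTTA, which lies within that element, occurred 16 times in IL1RAP, 6 times in IL1B and not at all in IL18, and was present in 73.9% of 3′ UTRs. A match is a description of the sequence, not evidence of a working site.

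Library totals ranged from 28464057 to 31688095 read pairs, so that 3 counts, the limit that a count of 0 allows, corresponded to 0.0944 to 0.104 CPM (counts per 1000000 of the library size as scaled by TMM, a normalization for differences in composition). This limit covers counting error only. RIPK4 itself was at 85.8, 76.5 and 54.7 CPM in neg.si and at 19.9, 16.7 and 21.5 CPM in RIPK4.si. Its log2 fold change was -1.90 (SE 0.20, edgeR adjusted p = 0.0102), although the call was lost on leaving out neg.si replicate 2 (adjusted p = 0.106) or RIPK4.si replicate 1 (0.0940), 2 (0.0622) or 3 (0.0725). All 8 melanocytic markers (MITF, PMEL, MLANA, TYR, TYRP1, DCT, SOX10, S100B) had counts in all 6 libraries, and their summed level was 3573 to 4012 CPM in neg.si and 2635 to 2759 CPM in RIPK4.si. Libraries also differed in how levels followed GC content: the Spearman correlation across genes between GC content and relative level was 0.582, 0.0791 and -0.578 in neg.si replicates 1, 2 and 3, and lay between -0.0865 and 0.181 in RIPK4.si. In these bulk samples, fewer cells that express a gene and less RNA per cell cannot be told apart.

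None of the 10 genes passed the adjusted threshold of 0.05 in the main test. IL33, the alarmin that signals through IL1RL1, had the largest difference among the 6 genes with enough counts to be tested, 0.87 on the log2 scale and higher in RIPK4.si, and IRAK1, the kinase that docks on the activated receptor complex, came next with 0.62. IL1B, IL1RAP, IRAK2 and IRAK4 had log2 fold changes between -0.34 and -0.18, each overlapping between groups. IL1A, IL18, IL1R1 and IL1RL1 were near the detection limit, with at most 11 counts in any library. The family in these cells was thus represented mainly by IL1RAP and IRAK1 transcripts, with low IL33 and IL1B and very little transcript of the primary chains IL1R1 and IL1RL1.

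**Figure D1:**
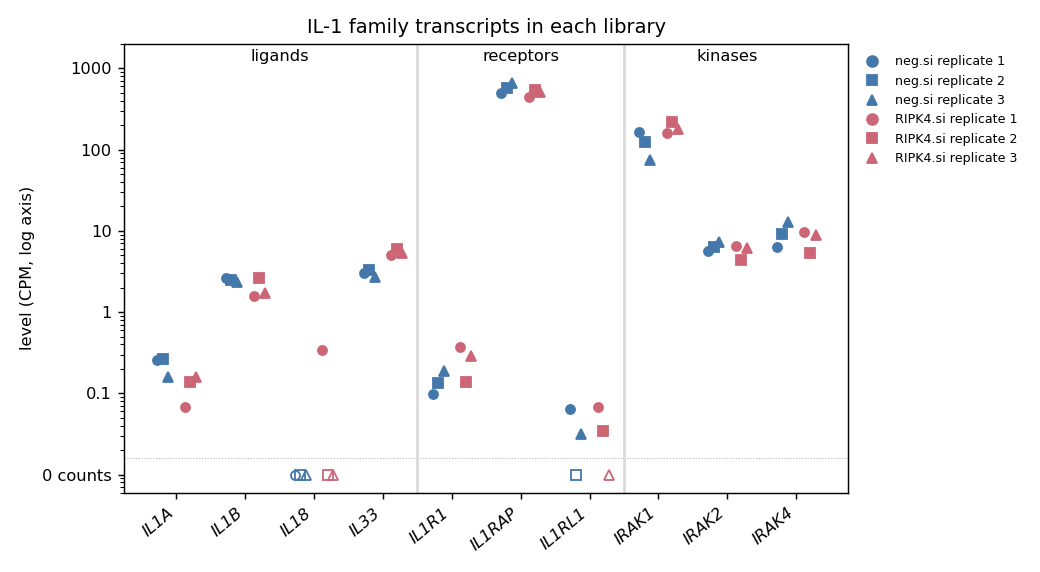
Levels of the 10 IL-1 family genes in CPM on a log axis, with 1 point per library (blue, neg.si; red, RIPK4.si; circle, square and triangle, replicates 1, 2 and 3); open symbols below the dotted line mark libraries with 0 counts. IL1RAP and IRAK1 lie at 75.6 CPM or higher in all 6 libraries, IL33 is the only gene among the 6 tested whose groups do not overlap, and IL18 has counts in 1 library.

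The filter on low counts was passed by 6 of the 10 genes, and the counts that follow refer to these 6. With edgeR's quasi-likelihood test 0 of 6 were called at an adjusted p under 0.05, against 0.767% of the 16297 genes tested. At an unadjusted p under 0.05 there were 2 of 6 (IL33 and IRAK1, both higher in RIPK4.si), against 10.8% of all genes tested. DESeq2 called 1 of 6 (IL33), against 2.91% of genes. Libraries of the groups did not overlap for 1 of 6 (IL33), against 17.6% of genes. When the dependence of level on GC content was removed within every library, 1 of 6 was called (IRAK1), against 3.29% of genes. The median log2 fold change of the 6 genes was -0.20, and that of all genes tested was -0.02.

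IL33 (ENSG00000137033.11, GRCh38 chr9:6215786-6257983, plus strand) had 94, 99 and 86 counts in neg.si and 148, 175 and 167 counts in RIPK4.si. These corresponded to 3.04, 3.30 and 2.71 CPM and to 5.04, 6.06 and 5.37 CPM. All 3 RIPK4.si libraries lay above all 3 neg.si libraries, with means of 3.01 ± 0.295 and 5.49 ± 0.517 CPM (SD, n = 3 each). The log2 fold change was 0.87 (SE 0.20, edgeR adjusted p = 0.102, unadjusted p = 0.00173), so the difference exceeded the spread between replicates but missed the threshold over all genes. DESeq2 gave an adjusted p of 0.0241 for the same gene. A two-sided exact permutation test over the libraries gave p = 0.1, the smallest value that 3 against 3 allows. Over 14 alternatives the log2 fold change stayed between 0.80 and 0.95, and the adjusted p ranged from 0.0241 to 0.456, the highest without RIPK4.si replicate 3. GC content was 34.4% of the exons, below the 5th percentile of the genes tested (37.2%). With each library's GC trend removed, IL33 was at 3.78, 3.39 and 2.07 CPM in neg.si. In RIPK4.si it was then at 5.16, 6.15 and 5.16 CPM, still without overlap. The log2 fold change became 0.85, its SE rose to 0.24, and the edgeR adjusted p was 0.102 (unadjusted p = 0.00588).

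IL1B (ENSG00000125538.12, chr2:112829751-112836816, minus strand), the ligand with the AU-rich element shown above, had 82, 74 and 75 counts in neg.si and 46, 76 and 53 in RIPK4.si. In CPM these were 2.65, 2.46 and 2.36 against 1.57, 2.63 and 1.70. RIPK4.si replicate 2 lay within the range of the neg.si libraries, and the other 2 were lower. The means were 2.49 ± 0.145 and 1.97 ± 0.578 CPM (SD, n = 3 each), and the log2 fold change was -0.34 (SE 0.27, edgeR adjusted p = 0.775). The estimate stayed below 0 in all 14 alternatives, from -0.60 (RIPK4.si replicate 2 left out) to -0.19 (RIPK4.si replicate 1 left out), without passing the threshold in any of them. The summed level of 7 monocyte and macrophage markers, cells that make much IL-1β, was 7.08 to 9.62 CPM in neg.si and 5.16 to 5.93 CPM in RIPK4.si. Of these markers 6 were tested, with log2 fold changes from -0.98 to 0.23. At an unadjusted edgeR p under 0.05, 1 of the 6 was lower in RIPK4.si, against 10.8% of all genes in either direction. The part of the difference in summed level in the IL1B values was not tested.

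IL1A (ENSG00000115008.5, chr2:112773915-112784590, minus strand), which encodes the other IL1R1 ligand, had 8, 8 and 5 counts in neg.si and 2, 4 and 5 in RIPK4.si. It did not pass the filter, the groups overlapped in CPM (0.157 to 0.266 against 0.0682 to 0.161), and the exact permutation test gave p = 0.2. IL18 (ENSG00000150782.12, chr11:112143253-112164096, minus strand) had 0 counts in 5 libraries and 10 counts in RIPK4.si replicate 1. The keratinocyte markers KRT5, KRT14 and KRT6A also had counts in the replicate 1 libraries of both groups and 0 in the other 4 libraries: 6, 5 and 10 counts respectively in RIPK4.si replicate 1, and 19, 5 and 11 in neg.si replicate 1, where IL18 was at 0. KRT10, another marker of that list, had 305 to 465 counts in all libraries. Over the 7 keratinocyte markers measured, the summed level was 10.6 to 12.5 CPM in neg.si and 12.3 to 16.3 CPM in RIPK4.si, and its part in the IL18 counts was not tested. No fold change is given for IL18, since a single library carried all of its counts.

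Among the receptor chains only the shared accessory chain was abundant. IL1RAP (ENSG00000196083.10, chr3:190514051-190659750, plus strand) was at 504, 574 and 656 CPM in neg.si and at 451, 537 and 512 CPM in RIPK4.si. The groups overlapped, with means of 578 ± 75.9 and 499.9 ± 44.3 CPM (SD, n = 3 each) and a log2 fold change of -0.21 (SE 0.16, edgeR adjusted p = 0.767), which became -0.10 when neg.si replicate 3 and -0.13 when RIPK4.si replicate 1 was left out. The primary chains stood at the other end of the scale. IL1R1 (ENSG00000115594.12, chr2:102064544-102179874, plus strand) had 3, 4 and 6 counts in neg.si and 11, 4 and 9 in RIPK4.si. Its groups overlapped in CPM (0.0969 to 0.189 against 0.138 to 0.375; exact permutation p = 0.2), and since its exons overlap the antisense gene IL1R1-AS1 and strand was not used in counting, reads of the 2 genes cannot be told apart. IL1RL1 (ENSG00000115602.17, chr2:102311502-102352037, plus strand), the IL-33 receptor, had 2, 0 and 1 counts in neg.si and 2, 1 and 0 in RIPK4.si, all under the limit of 3 counts. It shares exon sequence with IL18R1 on the same strand, so even these few counts are uncertain. Neither primary receptor passed the filter on low counts. Without the filter, IL1R1 had a log2 fold change of 0.93 (edgeR adjusted p = 0.811), and a change in IL1RL1 was not detectable at this depth.

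IRAK1 (ENSG00000184216.14, chrX:154010506-154019902, minus strand) was at 164, 123 and 75.6 CPM in neg.si and at 160.4, 216 and 179.5 CPM in RIPK4.si. The groups overlapped through neg.si replicate 1, and the neg.si libraries spread more widely than the RIPK4.si libraries. The means were 121 ± 44.4 and 185 ± 28.4 CPM (SD, n = 3 each), and the log2 fold change was 0.62 (SE 0.26, edgeR adjusted p = 0.429, unadjusted p = 0.0413). IRAK1 is GC-rich, with 62.8% of its exon bases G or C against a median of 47.8% over the genes tested, and its order among the neg.si libraries was that of their correlation with GC content. With each library's GC trend removed, IRAK1 was at 128, 121 and 102 CPM in neg.si and at 166, 199.8 and 176 CPM in RIPK4.si, and the groups no longer overlapped. Then the log2 fold change was again 0.62, its SE fell to 0.13, and the edgeR adjusted p was 0.0427, but with a replicate block added it was 0.0507. As counted, the lowest estimate was 0.37, with neg.si replicate 3 left out, and the highest was 0.92, with neg.si replicate 1 left out.

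IRAK4 (ENSG00000198001.13, chr12:43758944-43789543, plus strand), the kinase that acts first in the receptor complex, was at 6.26, 9.06 and 12.8 CPM in neg.si and at 9.78, 5.33 and 8.91 CPM in RIPK4.si. The neg.si order was the reverse of that of IRAK1, and the exons of IRAK4 held 42.1% GC. The groups overlapped, with means of 9.37 ± 3.27 and 8.01 ± 2.36 CPM (SD, n = 3 each) and a log2 fold change of -0.23 (SE 0.30, edgeR adjusted p = 0.902). The sign depended on single libraries: leaving out neg.si replicate 3 gave 0.067, and leaving out RIPK4.si replicate 2 gave 0.0080. In GENCODE 44 an exon of IRAK4 overlaps TWF1 on the opposite strand, and the deposited counts did not separate strands. IRAK2 (ENSG00000134070.5, chr3:10164919-10243745, plus strand), which takes part in later steps of the response, was at 5.68, 6.26 and 7.37 CPM in neg.si and at 6.44, 4.43 and 6.14 CPM in RIPK4.si. Its groups also overlapped, and the log2 fold change was -0.18 (SE 0.21, edgeR adjusted p = 0.879), which became -0.023 when RIPK4.si replicate 2, and -0.071 when neg.si replicate 3, was left out.

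**Figure D2:**
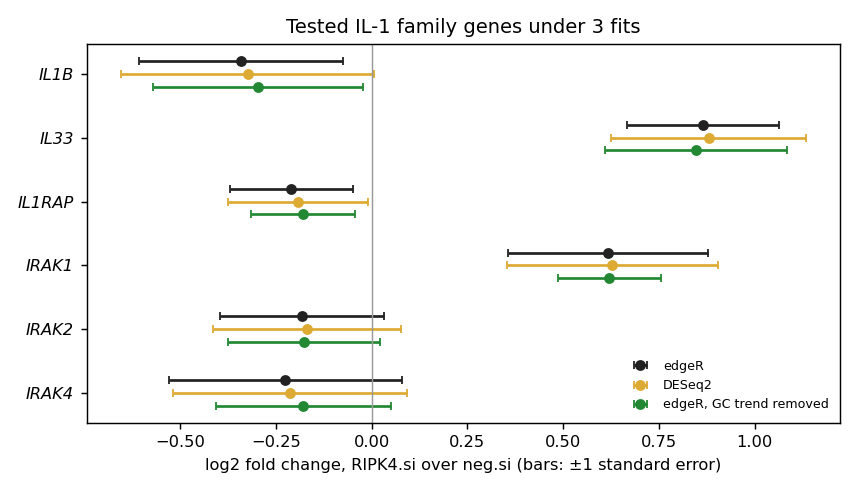
Log2 fold changes (RIPK4.si over neg.si) of the 6 tested genes, with bars of 1 standard error, from edgeR (black), DESeq2 (yellow) and edgeR with the GC trend taken out (green). IL33 and IRAK1 lie above 0 in the 3 fits, the standard error of IRAK1 is smallest after GC removal (0.13), and the other 4 genes lie between -0.34 and -0.17.

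**Figure D3:**
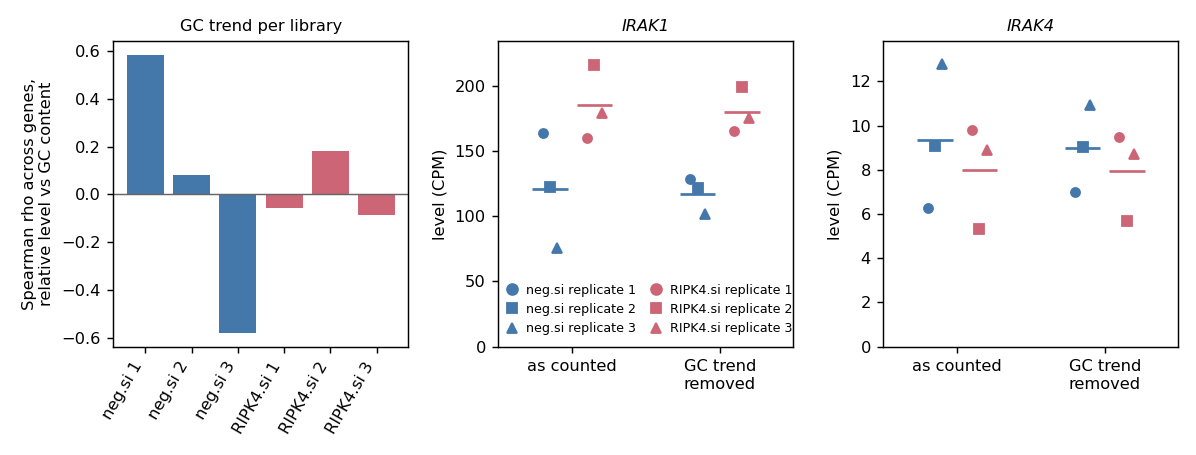
Left, Spearman correlation across genes between GC content and relative level in each library. Middle and right, IRAK1 and IRAK4 in CPM as counted and after removal of the GC trend, with 1 symbol per library and a line at the group mean; for IRAK1 the neg.si libraries span 75.6 to 164 CPM as counted and 102 to 128 CPM afterwards.

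Compared per kilobase of exon, which allows levels of different genes to be ranked, the order in neg.si was IL1RAP (51.6 ± 6.77 CPM per kb), IRAK1 (28.4 ± 10.4), IRAK2 (1.88 ± 0.249), IRAK4 (1.28 ± 0.447), IL33 (0.926 ± 0.0908), IL1B (0.828 ± 0.0483) and IL1A (0.113 ± 0.0301), with IL1R1, IL1RL1 and IL18 at 0.0196 CPM per kb or lower (SD, n = 3 each). The ranges of neighbours overlapped from IRAK2 down to IL1B, whereas those of IL1RAP, IRAK1 and IRAK2 did not. Within each of the 3 neg.si libraries, IRAK2 was nonetheless above IRAK4 and IL33 above IL1B, while IRAK4 and IL33 changed order between libraries. In RIPK4.si, IL1RAP (44.6 ± 3.95) and IRAK1 (43.5 ± 6.65) overlapped. IL33 (1.69 ± 0.159) then had the next highest mean, overlapping with IRAK2 (1.65 ± 0.316). Exon lengths were taken from GENCODE 44, whose transcript models can be longer than those counted. The model of IRAK4 ends beyond the gene end in the deposited table, so its level per kilobase and its place in the order are uncertain.

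The other genes of the pathway were grouped into 5 lists by role. Of 8 further ligands and antagonists, 4 were tested and 0 passed the adjusted threshold, against 0.767% of all genes. These were IL36B (0.49, SE 0.41), IL36RN, which encodes the IL-36 receptor antagonist (0.47, SE 0.36; 0.16 when RIPK4.si replicate 2 was left out), IL18BP, a soluble inhibitor of IL-18 (0.08, SE 0.33) and IL36G (-0.30, SE 0.47), all as log2 fold changes. IL1RN, the IL-1 receptor antagonist, had at most 4 counts in a library and IL37 had 2, 7 and 2 counts against 8, 13 and 8; neither was tested. Of 7 further receptors, SIGIRR, an inhibitory receptor (-0.24, SE 0.29), and IL1RAPL1, an accessory-protein homologue best known in neurons (0.48, SE 0.19), were tested, and 0 passed the adjusted threshold. The IL1RAPL1 libraries did not overlap, as for 17.6% of all genes, with means of 5.59 ± 0.710 and 7.79 ± 0.958 CPM (SD, n = 3 each; edgeR adjusted p = 0.3997, unadjusted p = 0.0355). IL1R2, IL18R1, IL18RAP, IL1RL2 and IL1RAPL2 were not analysed here.

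In the list of receptor-proximal signalling, 22 of 22 genes were tested, and 0 passed at an adjusted or an unadjusted p under 0.05, with 0 called by DESeq2, against 0.767%, 10.8% and 2.91% of all genes. The median log2 fold change was 0.03 and the range was -0.43 (UBE2V1) to 0.27 (IRAK3, an IRAK that restrains signalling). Both ends moved with single libraries: UBE2V1 was at -0.11 without neg.si replicate 3, and leaving out neg.si replicate 1 or 3 put IRAK3 at 0.096 or 0.56. The adaptor MYD88 was at 86.1 ± 14.7 CPM in neg.si and 89.0 ± 11.8 CPM in RIPK4.si (SD, n = 3 each), a log2 fold change of 0.05 (SE 0.18). The ubiquitin ligase TRAF6 was at 18.5 ± 2.78 and 19.8 ± 0.386 CPM, with a log2 fold change of 0.10 (SE 0.17). MAP3K7, which encodes the kinase TAK1, had -0.03 (SE 0.17) and the inhibitor TOLLIP -0.31 (SE 0.20). Leaving out neg.si replicate 1 or 3 put TOLLIP at -0.13 or -0.49, and TRAF6 at 0.037 or 0.23. PELI1, a ubiquitin ligase that modifies IRAK1, was the 1 gene of the 22 whose groups did not overlap, against 17.6% of all genes (-0.30, SE 0.16, edgeR adjusted p = 0.574).

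In the list of genes for processing and release, 21 of 23 were tested and 0 passed the adjusted threshold with edgeR, while 4 had an unadjusted p under 0.05 (1 higher, 3 lower in RIPK4.si). Over all genes tested these shares were 0.767% and 10.8%. Groups did not overlap for 1 gene that was higher and 4 that were lower, against 17.6% of all genes. MEFV, which encodes the inflammasome protein pyrin, was at 0.420, 0.499 and 0.567 CPM in neg.si and at 1.26, 1.35 and 1.32 CPM in RIPK4.si. The groups lay far apart relative to their spread, but the level was low: the highest library had 41 counts. Its log2 fold change was 1.39 (SE 0.30, edgeR adjusted p = 0.0878), and DESeq2 called it (adjusted p = 0.0479). MEFV was called in 2 of 14 alternatives, and its edgeR adjusted p reached 0.448 without RIPK4.si replicate 3. CASP4, a caspase of the non-canonical inflammasome, was at 83.2 ± 8.64 and 55.7 ± 7.22 CPM (SD, n = 3 each), a log2 fold change of -0.58 (SE 0.16, edgeR adjusted p = 0.171).

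PYCARD, the inflammasome adaptor ASC, was at 24.99, 20.4 and 12.97 CPM in neg.si and at 12.6, 13.8 and 12.3 CPM in RIPK4.si, and the groups overlapped through neg.si replicate 3. It had a log2 fold change of -0.59 (edgeR adjusted p = 0.388), and was called with the GC trend removed (adjusted p = 0.0432) and without neg.si replicate 3 (-0.81, adjusted p = 0.0396), while 0 genes of the list were called when a replicate block was added to the GC removal. CASP1, the enzyme that matures IL-1β and IL-18, was at 47.3 ± 6.67 and 53.2 ± 10.3 CPM (SD, n = 3 each), with a log2 fold change of 0.17 (SE 0.19, edgeR adjusted p = 0.865), or 0.010 when RIPK4.si replicate 2 and 0.070 when neg.si replicate 3 was left out. GSDMD, the pore-forming protein through which mature IL-1β leaves the cell, had 0.54 (SE 0.26, edgeR adjusted p = 0.523; 0.29 when neg.si replicate 3 was left out, 0.86 when neg.si replicate 1 was), and the inflammasome sensor NLRP1 had 0.11 (SE 0.23). The median log2 fold change of the list was -0.01.

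Of 33 genes known to respond to IL-1, 26 were tested, and 1 fell at the adjusted threshold with edgeR, against 0.767% of all genes called in either direction. That gene was CSF3, which encodes the granulocyte growth factor G-CSF, at 2.74, 2.56 and 2.01 CPM in neg.si and 0.886, 0.969 and 0.836 CPM in RIPK4.si. The means were 2.44 ± 0.380 and 0.897 ± 0.0673 CPM (SD, n = 3 each), with a log2 fold change of -1.44 (SE 0.26, edgeR adjusted p = 0.0480). The call was held in 7 of 14 alternatives. It was lost with DESeq2's size factors in edgeR (adjusted p = 0.0522), with the replicate number as a block (0.0667) and on leaving out any single library except neg.si replicate 3, and the adjusted p reached 0.341 without RIPK4.si replicate 3. In the other direction, PTGS2, which encodes cyclooxygenase-2, was at 5.23, 6.66 and 8.31 CPM in neg.si and 13.02, 13.3 and 14.5 CPM in RIPK4.si. The groups did not overlap, and the log2 fold change was 1.01 (SE 0.21), with an edgeR adjusted p of 0.0690 and a DESeq2 adjusted p of 0.000834. PTGS2 was called in 4 of 14 alternatives, and its edgeR adjusted p reached 0.373 without RIPK4.si replicate 3.

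TNFAIP6, whose product TSG-6 dampens inflammation, was at 8.43, 7.76 and 7.84 CPM in neg.si and 13.02, 16.7 and 11.3 CPM in RIPK4.si (log2 fold change 0.77, SE 0.19, edgeR adjusted p = 0.130, DESeq2 adjusted p = 0.0257). DESeq2 was the 1 of 14 alternatives that called TNFAIP6, and the edgeR adjusted p reached 0.523 without neg.si replicate 2. BIRC3, a ubiquitin ligase of NF-kB signalling that the study itself selected from these libraries, was at 45.9, 70.9 and 94.8 CPM in neg.si and 43.0, 29.6 and 42.9 CPM in RIPK4.si. Both of these genes separated the groups without overlap, in opposite directions, and BIRC3 had a log2 fold change of -0.87 (SE 0.26, edgeR adjusted p = 0.2198, DESeq2 adjusted p = 0.0465). BIRC3 was called in 3 of 14 alternatives, and its edgeR adjusted p reached 0.589 without neg.si replicate 2. Beyond these libraries, the paper reports lower BIRC3 after RIPK4 silencing by qRT-PCR and Western blot, and lower BIRC3 mRNA under TNF-α. CXCL8, the neutrophil chemokine IL-8, was at 396 ± 17.3 and 513 ± 104 CPM (SD, n = 3 each), also without overlap (0.38, SE 0.17, edgeR adjusted p = 0.487; 0.21 when RIPK4.si replicate 2 was left out). NFKBIA, the NF-kB inhibitor that NF-kB itself induces, was at 29.6 ± 3.30 and 24.3 ± 0.926 CPM (-0.28, SE 0.15, edgeR adjusted p = 0.589; -0.17 when neg.si replicate 1 was left out), and IL6 had 2 to 9 counts per library and was not tested. At an unadjusted p under 0.05 the list had 4 genes higher (CCL2, CCL20, PTGS2 and TNFAIP6) and 4 lower (CXCL2, CXCL3, CSF3 and BIRC3), and its median log2 fold change was -0.10. The share at an unadjusted p under 0.05 over all genes tested was 10.8%. Groups did not overlap for 6 genes of the list that were higher and 7 that were lower in RIPK4.si, against 17.6% of all genes in either direction.

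**Figure D4:**
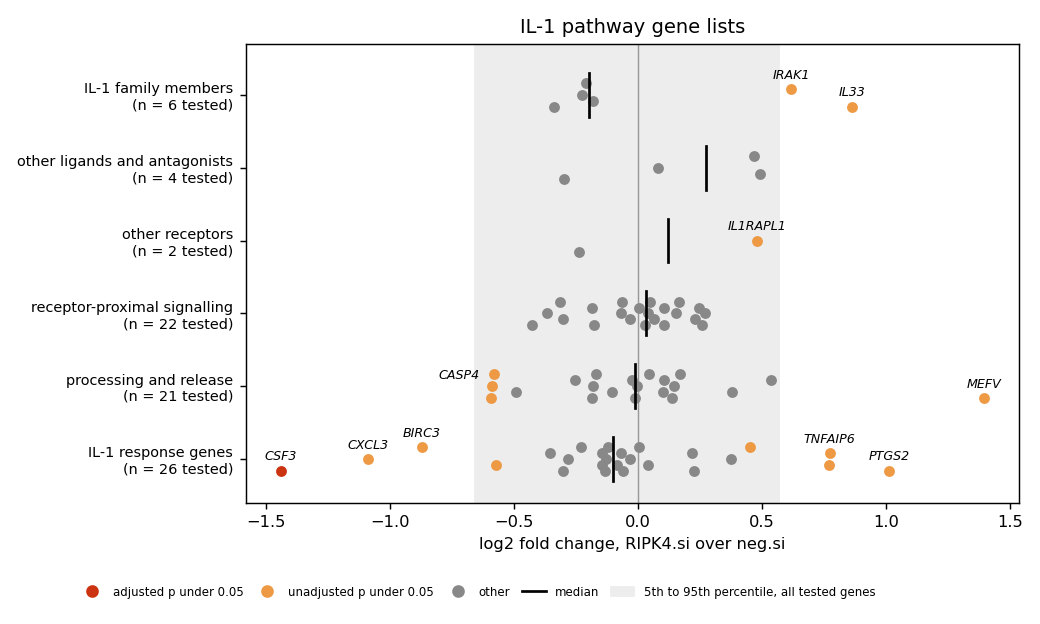
Log2 fold changes (RIPK4.si over neg.si) of the tested genes in the 10-gene family and the 5 pathway lists; red, edgeR adjusted p under 0.05; orange, unadjusted p under 0.05; grey, other genes; black bars, list medians; shaded, the 5th to 95th percentile of all tested genes (-0.66 to 0.57). CSF3 is the only red point, the 22 receptor-proximal genes all lie inside the shaded range, and the response genes spread to both sides.

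**Figure D5:**
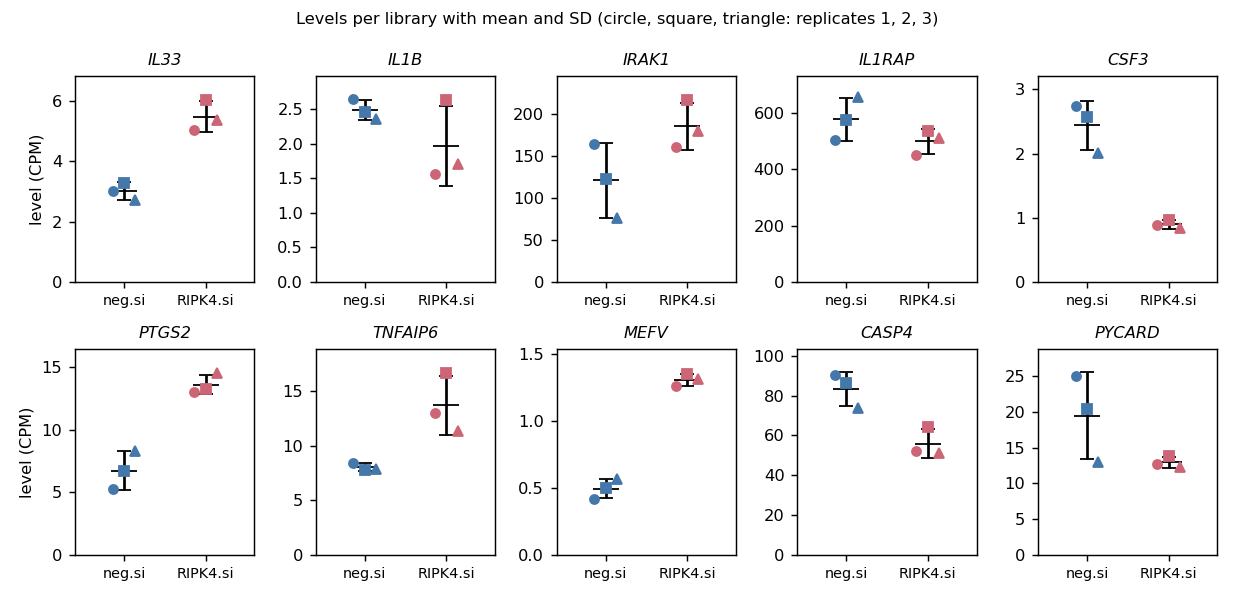
CPM per library (symbols as above), with the mean and SD of each group, for 4 family members and 6 pathway genes, on axes that start at 0. The groups are separate for IL33, CSF3, PTGS2, TNFAIP6, MEFV and CASP4, and overlap for IL1B, IRAK1, IL1RAP and PYCARD.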

How the data were processed

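RNA of 3 neg.si and 3 RIPK4.si cultures of WM266.4 cells was isolated 48 h after transfection. The authors prepared poly(A) libraries, sequenced both ends of fragments (BGISEQ-500), removed adapters (Cutadapt), mapped to GRCh38.p13 (TopHat) and counted pairs per gene, ignoring strand (HTSeq). The deposited counts are whole read pairs for 24526 genes. The deposited signal values are the authors' counts divided by DESeq2 size factors. The deposited fold ratios, log2 fold changes and p-values are the authors' own comparison and were not used.

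Counts were tested with edgeR 4.0.16 in R 4.3.3 (TMM, filter on low counts, quasi-likelihood test of condition, Benjamini-Hochberg adjustment over 16297 genes). Where no other tool is named, adjusted p-values come from this test. The standard error is the size of the log2 fold change divided by the square root of F. CPM used TMM-scaled library sizes. The test was tried on simulated counts. Alternatives were DESeq2 1.42.0, its size factors or upper-quartile scaling in edgeR, no filter, at least 10 counts in every library, a replicate block, removal of the trend on GC content within every library (lowess, span 0.3), that removal with the block, and each library left out. Replicates of a group differed by more than sampling noise (chi-square per degree of freedom 18.4 to 134). GENCODE 44 held 24416 of the gene identifiers and gave exon lengths, GC content and 3′ UTRs; figures used matplotlib 3.10.9.

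The members and lists were chosen with earlier results of these data known. Named were all members, RIPK4, from each pathway list the genes called by edgeR or DESeq2 and the 3 tested genes with the smallest p, and a set of key pathway genes whatever their values. PYCARD, CCL2, CCL20, CXCL2, CXCL3, IL37 and the keratins were named after their values were seen. A gene that this rule names is not reported here.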

Additional observations from a re-analysis of the deposited data

How the results depend on the processing

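Of the alternative values for named genes, 411 kept direction and side of the threshold, 11 lost and 13 gained the call, and 11 changed sign; since few genes were called to begin with, the first number says little about stability. The cause was not tested. Over all genes the 125 calls became 437 with DESeq2, 534 with the GC trend removed and 448 with a replicate block and GC trend removed, and 0 to 295 when 1 library was left out (0 without neg.si replicate 2, RIPK4.si replicate 1 or RIPK4.si replicate 3; 295 without neg.si replicate 3). The replicate block alone gave 131. The replicate numbers were not taken as pairs in the main test. Deviations of same-numbered libraries correlated at -0.242, 0.251 and 0.346 for replicates 1, 2 and 3. RIPK4.si replicate 2 correlated at 0.413 with neg.si replicate 1 and at -0.498 with neg.si replicate 3. The GC trends were not removed from these deviations, so the correlations cannot decide whether same-numbered libraries belong together. KRT5, KRT14 and KRT6A had counts in the replicate 1 library of each group and in no other.

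Of the IL-1 family members 0 were called, against 1 with DESeq2 (IL33), 1 with the GC trend removed (IRAK1), 0 with the replicate block and 0 on leaving out any library. For processing and release 0 became 2 with DESeq2, 2 with the GC trend removed, 0 with the replicate block and GC trend removed, and 0 to 1 on leaving out a library. For IL-1 response genes 1 became 4 with DESeq2, 0 with DESeq2 size factors, 0 with the replicate block, 3 with the GC trend removed, 3 with the replicate block and GC trend removed, and 0 to 2 on leaving out a library.

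Changes of sign came from leaving out 1 library, over which log2 fold changes ranged from -0.43 to 0.067 for IRAK4 (0.067 without neg.si replicate 3, 0.0080 without RIPK4.si replicate 2), -0.60 to 0.031 for IL36G (RIPK4.si replicate 3), -0.15 to 0.36 for IL18BP (RIPK4.si replicate 1; -0.099 without neg.si replicate 1), -0.45 to 0.15 for SIGIRR (neg.si replicate 1), -0.076 to 0.17 for MYD88 (neg.si replicate 3; -0.056 without RIPK4.si replicate 2), -0.098 to 0.14 for MAP3K7 (neg.si replicate 3; 0.043 without RIPK4.si replicate 2) and -0.046 to 0.34 for NLRP1 (RIPK4.si replicate 1). Depth limits IL1A, IL18, IL1R1 and IL1RL1, which did not pass the filter on low counts and were not called without it.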
